A study of Homo sapiens with 9 samples.

Results

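The genes of homologous recombination and of the Fanconi anemia pathway were examined in TE13 cells, an established esophageal squamous cell carcinoma (ESCC) line, transfected with a control siRNA or with either of 2 siRNAs against PARylator, named siRNA.1 and siRNA.2. PARylator is the lncRNA LINC00885, which the study links to PARP1 activation, and the comparison of each PARylator siRNA with control siRNA asks how the transcriptome of these cells differs when the lncRNA is targeted. The set has 36 genes among the 60605 of the deposited table, chosen by name as known components of the pathway and with 1 row per symbol. All 36 passed the filter on low values, an average of 0.1 FPKM or more across the 9 libraries, which left 21395 genes to test. FPKM is the fragment count of a gene per kilobase of its exons and for a fixed number of fragments counted in the library. Each condition had 3 libraries, which are biological replicates according to the series' design, all from the same cell line with no DNA-damaging agent named in the labels. The experiment therefore describes transiently transfected cells of 1 line.

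Homologous recombination repairs a double-strand break by copying an intact sister chromatid, and so works mainly in S and G2 phase. Nucleases first trim the broken end to a single strand, BRCA2 and its partners load the recombinase on that strand, motor proteins help it invade the sister, and nucleases or helicases then resolve the joined molecules. The Fanconi anemia pathway removes crosslinks between DNA strands, such as those made by cisplatin: its core complex, with the E2 enzyme UBE2T, attaches ubiquitin to FANCD2 and FANCI, and the break made during crosslink removal is then repaired by recombination. Loss of the pathway makes cells sensitive to crosslinking agents and to PARP inhibitors, and many of its genes are transcribed most in S phase.

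The libraries held between 15337917 and 22559998 counts on genes. All siRNA.2 libraries (19213164 or more) were deeper than all control and siRNA.1 libraries (17899074 or fewer). The set took between 24972 and 39060 counts of a library. Its genes had between 79 and 4117 counts in a library. Replicate libraries were distinct, their counts differing more than sampling alone would give (chi-square over its degrees of freedom, 2.73 to 4.40). LINC00885 (GRCh38, chr3:196142525-196160893) had 6, 7 and 12 counts in the control siRNA libraries, 4, 5 and 2 with siRNA.1, and 2, 0 and 4 with siRNA.2. These are 0.217, 0.0967 and 0.04 FPKM on average, and at such counts neither difference passed the test (edgeR adjusted p = 0.376 and 0.0659). The libraries labelled siRNA.1 and siRNA.2 thus carry no called fall of the targeted RNA. In FPKM all of them lay below all control libraries, with log2 values of -1.21 and -2.33. The paper reports siRNA knockdown of PARylator in TE13 and KYSE450 cells, measured by qPCR. All 8 squamous epithelial markers were measured, of which 2 rose and 4 fell with siRNA.1 and 2 rose and 5 fell with siRNA.2. The basal keratin KRT5, at 142 FPKM in control, fell by 1.86 and 1.36 on the log2 scale with the siRNAs, while KRT6A rose by 0.34 and 0.58 and EPCAM by 0.44 and 0.45. Of 12 markers of blood, stromal and endothelial cells 7 passed the filter, 3 rising and 3 falling with siRNA.1 and 2 rising and 3 falling with siRNA.2, and the 12 summed to 3.91 to 4.41 FPKM in the control libraries, 5.66 to 6.08 in the siRNA.1 libraries and 5.33 to 6.2 in the siRNA.2 libraries. Among these, the macrophage and neutrophil gene LYZ was at 0.317, 2.79 and 3.08 FPKM and the leukocyte gene PTPRC at 0.0333, 0.153 and 0.147, whereas the fibroblast gene DCN was at or near 0 in all groups. PTPRC lay near the filter of 0.1 FPKM. Of the 7, 2 rose and 3 fell with both siRNAs. The log2 fold changes of the 7 went both ways, from -2.15 to 3.08 with siRNA.1 and from -2.01 to 3.24 with siRNA.2. Mitochondrial transcripts took between 7.46% and 7.66% of counts in the control libraries, 4.99% to 5.06% in those with siRNA.1 and 5.54% to 5.56% in those with siRNA.2. The part of these differences in the results was not tested.

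Most of the set was well expressed. With control siRNA 12 of the genes were at 10 FPKM or more, 10 were between 5 and 10, 8 between 2 and 5, and 6 under 2 FPKM, and the median was 6.02 against 1.79 FPKM over all genes tested. The highest levels belonged to UBE2T (41.8 ± 2.41 FPKM, SD, n = 3), RAD51AP1 (25.0 ± 2.30), EXO1 (19.9 ± 0.41), RBBP8 (15.8 ± 0.955) and FANCI (15.7 ± 0.316). RBBP8 and FANCI, next to each other in this order, overlapped in their libraries. The lowest were RAD51D (1.60 ± 0.0808), RAD51B (1.12 ± 0.194) and RAD50 (0.497 ± 0.0709). The spread between replicates was small, the median coefficient of variation being 6.67% for control siRNA, 5.08% for siRNA.1 and 5.12% for siRNA.2.

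**Figure D1:**
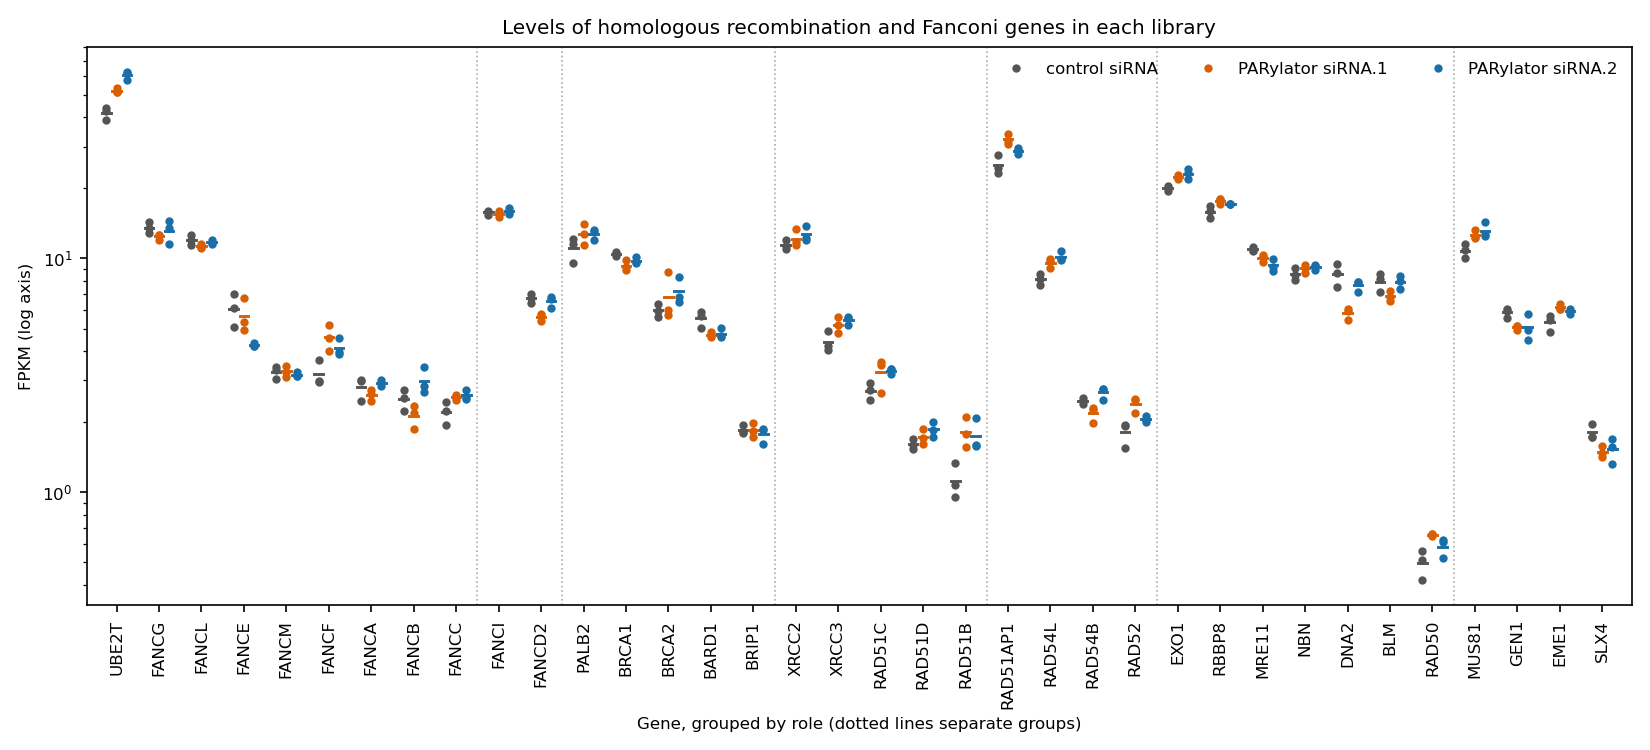
Level of each gene in FPKM on a log axis in the 9 libraries (points) with the mean of each condition (short lines), grouped by role and, within a role, ordered by the control mean. UBE2T is the highest gene of the set and RAD50 the lowest, and most genes have the 3 conditions close together.

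With siRNA.1, 10 of the 36 genes rose and 8 fell, where 15% of all tested genes rose and 15.2% fell (30.3% together). With siRNA.2, 12 rose and 4 fell, against 15.8% and 15.1% of all tested genes (30.9% together). Well-expressed genes pass a test on counts more often. The 12532 genes averaging 1 FPKM or more include 35 of the 36, and 44.8% of them were called with siRNA.1 (22.1% higher, 22.8% lower) and 45.9% with siRNA.2 (23.4% higher, 22.5% lower). The shares of the set, 50% and 44.4%, lay near this background. For siRNA.1 the median log2 fold change of the set was 0.06 and for siRNA.2 it was 0.12, against -0.00056 and 0.0040 over all tested genes.

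Of the 36, 9 rose with both siRNAs (25%, against 11.1% of all tested genes and 16.6% of those averaging 1 FPKM or more) and 3 fell with both (8.33%, against 10.2% and 15.7%). The genes that rose with both were FANCF, UBE2T, BRCA2, PALB2, RAD51B, XRCC3, RAD51AP1, RAD54L and MUS81, and those that fell with both were BARD1, MRE11 and GEN1. Among these genes, only UBE2T and RAD51B kept both calls whichever library was left out. No gene was called in opposite directions, 6 were called with siRNA.1 alone, 4 with siRNA.2 alone and 14 with neither. Both comparisons use the same control libraries. The changes were small: 67 of the 72 log2 fold changes were under 0.5 in size, and the largest was 0.68. A log2 change of 0.5 or more was called for RAD51B and DNA2 with siRNA.1 and for RAD51B, UBE2T and FANCE with siRNA.2, while 11.3% and 11.7% of all tested genes met both conditions.

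In bulk RNA, fewer cells in a phase or state and less RNA per cell cannot be told apart. In FPKM, the libraries of a condition separated completely from the control libraries for 21 genes with siRNA.1, 12 above and 9 below (20.7% and 17% of all tested genes). With siRNA.2 they did so for 20 genes, 16 above and 4 below (21.1% and 18.5%). Between the siRNAs they separated for 12 genes, with siRNA.2 above in 8 and below in 4 (11.3% and 13.1%). These shares are over all tested genes and were not taken for those averaging 1 FPKM or more. The 40 calls of the set over the 3 comparisons varied in firmness: 19 held when any 1 library was left out, and 21 were lost in at least 1 of those 9 fits.

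**Figure D2:**
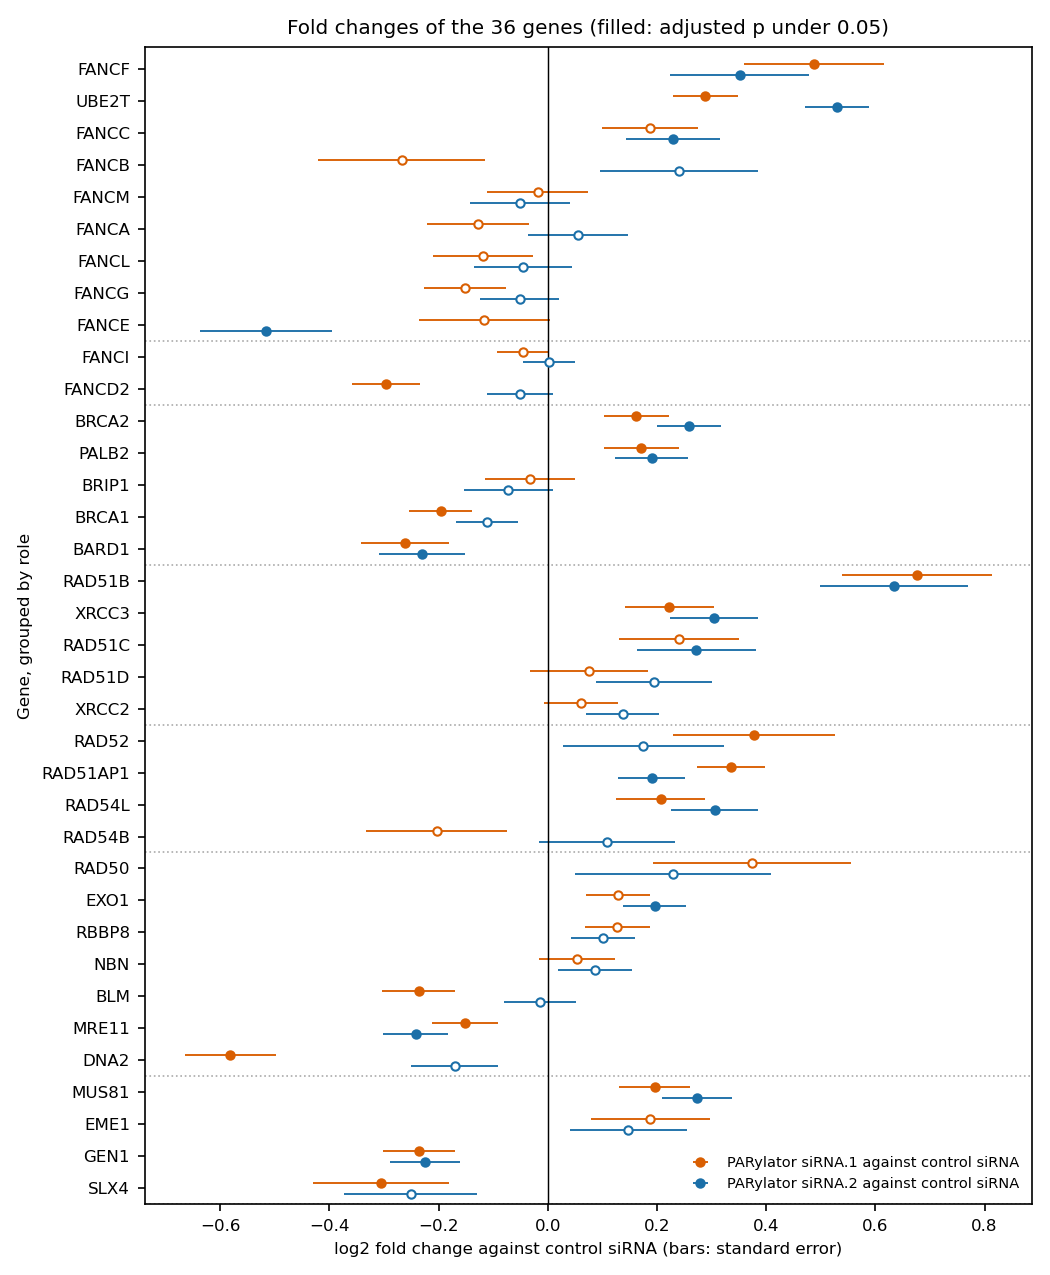
Log2 fold change of each gene against control siRNA for the 2 PARylator siRNAs (points, with bars for the standard error of the edgeR fit), with filled points for an adjusted p under 0.05. RAD51B lies farthest to the right with both siRNAs, DNA2 with siRNA.1 and FANCE with siRNA.2 lie farthest to the left, and the 5 genes from RAD51B to XRCC2 all have points at or above 0.

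The promoters of cell cycle genes often carry letters read by E2F proteins, which drive S phase transcription, or the cell cycle homology region and CCAAT box of genes expressed in G2 and M phase. RefSeq promoter windows (GRCh38.p14, 250 bases before to 50 after the start) were held for 32 of the 36 genes, with 42 windows in all. The E2F letters searched, on both strands, were TTTCCCGC, TTTGGCGC, TTTCGCGC and TTTGCCGC. They were present for 6 of the 32 genes (18.8%) and for 3.99% of the 27305 genes with a window. The cell cycle homology letters TTTGAA and TTCGAA were present for 4 (12.5%, against 19.5%) and CCAAT for 14 (43.8%, against 39.7%). The stretches of the 6 genes with E2F letters are shown so that the matches can be read in place, each 5′ to 3′ on the gene's strand, with the matching letters, or their reverse complement, in capitals and numbered from the RefSeq start:
EXO1 (chr1:241848158-241848233, plus strand, letters at 5 to 12): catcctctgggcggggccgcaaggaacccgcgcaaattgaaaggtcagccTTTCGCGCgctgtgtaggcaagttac
FANCD2 (chr3:10026385-10026466, plus strand, letters at -2 to 6): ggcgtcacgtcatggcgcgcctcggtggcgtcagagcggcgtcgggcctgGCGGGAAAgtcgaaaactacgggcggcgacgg
GEN1 (chr2:17753820-17753898, plus strand, letters at 2 to 9): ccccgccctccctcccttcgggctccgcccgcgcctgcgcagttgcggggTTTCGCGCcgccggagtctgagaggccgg
XRCC2 (chr7:152676112-152676170, minus strand, letters at 22 to 29): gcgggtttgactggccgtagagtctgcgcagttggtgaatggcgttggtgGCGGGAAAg
FANCA (chr16:89816760-89816869, minus strand, letters at -172 to -165): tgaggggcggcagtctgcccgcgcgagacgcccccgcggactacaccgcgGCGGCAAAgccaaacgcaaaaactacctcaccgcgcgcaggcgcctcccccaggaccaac
FANCC (chr9:95317696-95317931, minus strand, letters at -172 to -165 and -46 to -39): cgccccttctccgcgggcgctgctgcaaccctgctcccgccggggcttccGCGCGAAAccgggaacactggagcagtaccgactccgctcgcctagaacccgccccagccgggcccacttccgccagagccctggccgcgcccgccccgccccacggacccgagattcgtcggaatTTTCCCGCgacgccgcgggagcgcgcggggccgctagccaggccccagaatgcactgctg
These 6 genes went different ways. GEN1 fell with both siRNAs, FANCD2 fell with siRNA.1 alone, EXO1 and FANCC rose with siRNA.2 alone, and FANCA and XRCC2 were called with neither. UBE2T, the most abundant gene of the set, held no E2F letters of this list but had cell cycle homology letters at -153 to -148 and CCAAT at -124 to -120 and -73 to -69, shown in capitals:
UBE2T (chr1:202341950-202342139, minus strand): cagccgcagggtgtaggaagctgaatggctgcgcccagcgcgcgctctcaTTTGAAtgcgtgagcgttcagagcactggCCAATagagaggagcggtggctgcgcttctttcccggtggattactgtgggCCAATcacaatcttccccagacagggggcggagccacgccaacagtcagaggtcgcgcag
A match is a match of letters only, and binding was not measured here.

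The Fanconi core complex and its E2 enzyme had 9 genes in the set. Of these, 2 rose with both siRNAs, as did 11.1% of all tested genes and 16.6% of those averaging 1 FPKM or more. FANCC rose and FANCE fell with siRNA.2 alone, and 5 genes were called with neither. UBE2T (chr1:202331657-202341980), the E2 enzyme that places ubiquitin on FANCD2, had 39.1, 43.7 and 42.5 FPKM with control siRNA, 51.2, 53.4 and 51.5 with siRNA.1, and 58.0, 61.9 and 62.3 with siRNA.2. All 3 conditions were apart, with siRNA.2 highest. The log2 fold change was 0.29 ± 0.06 (SE; adjusted p = 1.26e-05, edgeR's quasi-likelihood test) with siRNA.1 and 0.53 ± 0.06 (adjusted p = 7.18e-18) with siRNA.2, the smallest adjusted p of the 36 genes. The direct comparison of the siRNAs also passed, with siRNA.2 higher by 0.24 (adjusted p = 0.000627). UBE2T was called in all 3 comparisons in each of the 23 other settings of the fit.

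FANCF (chr11:22622533-22625823), an adaptor of the core complex, had 2.95, 2.98 and 3.67 FPKM with control siRNA, 5.18, 4.57 and 4.02 with siRNA.1, and 3.88, 4.55 and 3.96 with siRNA.2. Each siRNA library was above each control library. The log2 fold changes were 0.49 ± 0.13 (adjusted p = 0.000823) and 0.35 ± 0.13 (adjusted p = 0.0216). The siRNA.2 call was lost without control replicate 1 (adjusted p = 0.106), control replicate 2 (0.103) or siRNA.2 replicate 2 (0.16). FANCE, which links the core complex to FANCD2, moved the other way: it had 6.14, 7.01 and 5.07 FPKM with control siRNA and 6.77, 5.33 and 4.95 with siRNA.1, which overlapped, but 4.34, 4.23 and 4.22 with siRNA.2, all lower. The siRNA.2 change was -0.52 ± 0.12 (adjusted p = 0.000127), and the siRNA.1 value, -0.12 ± 0.12, did not pass (adjusted p = 0.526). FANCC, another core member, rose with siRNA.2 by 0.23 ± 0.09 (adjusted p = 0.029), with 1.93 to 2.42 FPKM in the control libraries and 2.50 to 2.73 with siRNA.2. Its call was lost without control replicate 1 (adjusted p = 0.272), control replicate 3 (0.0502), siRNA.2 replicate 1 (0.106) or siRNA.2 replicate 2 (0.0597), and its siRNA.1 value of 0.19, uncalled with all libraries, passed without control replicate 2 (0.0345).

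FANCB, a core subunit that stimulates the ubiquitin ligase FANCL, differed between the siRNAs but from control with neither. It had 2.23, 2.52 and 2.72 FPKM with control siRNA, 1.85, 2.32 and 2.18 with siRNA.1 and 3.42, 2.84 and 2.68 with siRNA.2. The siRNA libraries did not overlap each other, while the control libraries overlapped with both. The log2 values were -0.27 ± 0.15 (adjusted p = 0.191) and 0.24 ± 0.14 (adjusted p = 0.222) against control, and 0.51 ± 0.15 (adjusted p = 0.00727) between the siRNAs, where 12.2% of all tested genes were called. That call was lost without siRNA.1 replicate 1 (adjusted p = 0.0774) or siRNA.2 replicate 1 (0.0955). FANCL itself, the catalytic subunit, and FANCA, FANCG and FANCM had log2 values between -0.15 and 0.06 against control and did not pass. Between the siRNAs these 4 genes did not pass either, the highest value being 0.18 ± 0.09 for FANCA (adjusted p = 0.22), whose siRNA.2 libraries all lay above its siRNA.1 libraries.

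FANCD2 and FANCI form the clamp that the core complex modifies. FANCD2 (chr3:10026370-10101932) had 7, 6.76 and 6.45 FPKM with control siRNA, 5.36, 5.63 and 5.77 with siRNA.1 and 6.84, 6.14 and 6.66 with siRNA.2. The siRNA.1 libraries lay below all others. The log2 fold change was -0.30 ± 0.06 (adjusted p = 1.55e-05) with siRNA.1 and -0.05 ± 0.06 (adjusted p = 0.598) with siRNA.2, and the siRNAs differed by 0.25 ± 0.06 (adjusted p = 0.0012). Its partner FANCI, whose level ranged from 15.01 to 16.4 FPKM, had values of -0.05 ± 0.05 and 0.0020 ± 0.05 and passed in no comparison.

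The BRCA complexes split. BRCA2, which loads the recombinase, and PALB2, which bridges it to BRCA1, rose with both siRNAs, while BARD1, the obligate partner of BRCA1, fell with both and BRCA1 fell with siRNA.1. BRCA2 (chr13:32315086-32400268) had 6.38, 5.61 and 5.93 FPKM with control siRNA, 5.74, 8.76 and 6.02 with siRNA.1, and 8.31, 6.85 and 6.49 with siRNA.2. The siRNA.1 rise came from replicate 2, since the other siRNA.1 libraries lay within the control range. The log2 fold change was 0.16 ± 0.06 (adjusted p = 0.024) with siRNA.1, and without siRNA.1 replicate 2 it was -0.043 (adjusted p = 0.701). That call was also lost without control replicate 2 (adjusted p = 0.191) or control replicate 3 (0.0687). The siRNA.2 change was 0.26 ± 0.06 (adjusted p = 7.1e-05), and 0.16 (adjusted p = 0.051) without siRNA.2 replicate 1. Without siRNA.1 replicate 2, siRNA.2 exceeded siRNA.1 by 0.30 (adjusted p = 8.93e-05), a difference that was 0.10 (adjusted p = 0.345) with all libraries.

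BARD1 had 5.04, 5.91 and 5.67 FPKM with control siRNA, 4.70, 4.83 and 4.61 with siRNA.1, and 5.04, 4.58 and 4.65 with siRNA.2. The siRNA.1 libraries were below the control libraries, and 1 siRNA.2 library equalled the lowest control. The changes were -0.26 ± 0.08 (adjusted p = 0.00544) and -0.23 ± 0.08 (adjusted p = 0.0141). Without control replicate 2, neither passed (adjusted p = 0.0611 and 0.112), and the siRNA.2 call was also lost without control replicate 3 (0.063), siRNA.2 replicate 2 (0.0636) or siRNA.2 replicate 3 (0.0567). BRCA1 had 10.3 to 10.6 FPKM in the control libraries, 8.86 to 9.82 for siRNA.1 and 9.55 to 10.1 for siRNA.2. Both siRNA groups lay below control, with values of -0.20 ± 0.06 (adjusted p = 0.00345) and -0.11 ± 0.06 (adjusted p = 0.136), and the siRNAs did not differ by the test (adjusted p = 0.421).

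PALB2 rose by 0.17 ± 0.07 (adjusted p = 0.0409) and 0.19 ± 0.07 (adjusted p = 0.0179), but its libraries overlapped in both comparisons, with 9.54 to 12.1 FPKM in control, 11.4 to 14.0 for siRNA.1 and 12.0 to 13.3 for siRNA.2. Without control replicate 2, its lowest library, neither call held (adjusted p = 0.522 and 0.398). The siRNA.1 call was also lost without siRNA.1 replicate 1 (0.0837) or 2 (0.329), and the siRNA.2 call without siRNA.2 replicate 1 (0.07) or 2 (0.0764). BRIP1, the helicase bound by BRCA1, was between 1.60 and 1.97 FPKM in all libraries and was not called.

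The paralogue complexes, which help the recombinase filament form and hold, were the role group whose 5 genes all had positive values with both siRNAs. With siRNA.2, the libraries of all 5 lay above the control libraries, where 21.1% of all tested genes did. Of the 5, 3 were called higher, where 15.8% of all tested genes and 23.4% of those averaging 1 FPKM or more were. XRCC3, among these 3, shares 76.7% of its exonic bases with KLC1, which also rose. RAD51B (chr14:67819779-68730218) changed most of all 36 genes: it had 1.07, 1.33 and 0.95 FPKM with control siRNA, 1.77, 1.56 and 2.10 with siRNA.1, and 1.59, 2.07 and 1.57 with siRNA.2. Each siRNA library was above each control library. The log2 fold changes were 0.68 ± 0.14 (adjusted p = 7.65e-06) and 0.63 ± 0.14 (adjusted p = 2.29e-05), or 1.60-fold and 1.55-fold, and both calls held in each of those 23 settings. Few fragments lay behind them, between 123 and 298 counts in a library.

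XRCC3 (chr14:103697609-103715504), the partner of RAD51C, had 4.21, 4.90 and 4.03 FPKM with control siRNA, 4.79, 5.19 and 5.62 with siRNA.1 and 5.18, 5.53 and 5.61 with siRNA.2. The siRNA.2 libraries were apart from control, and the lowest siRNA.1 library lay within the control range. The changes were 0.22 ± 0.08 (adjusted p = 0.0245) and 0.30 ± 0.08 (adjusted p = 0.00083). The siRNA.1 call was lost without control replicate 1 (adjusted p = 0.0911), control replicate 3 (0.192) or siRNA.1 replicate 3 (0.214). RAD51C, shared by both paralogue complexes, had 2.47, 2.91 and 2.73 FPKM with control siRNA, 3.49, 2.66 and 3.59 with siRNA.1 and 3.35, 3.35 and 3.19 with siRNA.2. Its siRNA.2 value of 0.27 ± 0.11 passed (adjusted p = 0.0403), and was lost without control replicate 1 (0.192) or 3 (0.0722) or any of siRNA.2 replicates 1 (0.0768), 2 (0.109) and 3 (0.064). Its siRNA.1 value of 0.24 ± 0.11 did not pass (adjusted p = 0.0878), and passed without siRNA.1 replicate 2 (0.0102). RAD51D and XRCC2 had values of 0.08 ± 0.11 and 0.06 ± 0.07 with siRNA.1 and of 0.19 ± 0.11 and 0.14 ± 0.07 with siRNA.2, and neither passed.

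Of the mediators and motors, RAD51AP1 and RAD54L rose with both siRNAs. RAD51AP1, which stimulates strand invasion, had 23.2, 24.2 and 27.6 FPKM with control siRNA, 30.9, 34.0 and 31.8 with siRNA.1, and 28.9, 29.6 and 27.9 with siRNA.2. The siRNA libraries were above control in both comparisons, narrowly with siRNA.2. The changes were 0.33 ± 0.06 (adjusted p = 8.06e-07) and 0.19 ± 0.06 (adjusted p = 0.00926). The siRNA.2 call was lost without control replicate 1 (adjusted p = 0.121), control replicate 2 (0.0616) or siRNA.2 replicate 2 (0.0675).

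RAD54L, a motor protein that remodels the joint between the strands, had 7.64, 8.15 and 8.58 FPKM with control siRNA, 9.10, 9.92 and 9.69 with siRNA.1 and 9.93, 10.7 and 9.78 with siRNA.2. Both siRNA groups were above all control libraries. The changes were 0.21 ± 0.08 (adjusted p = 0.0388) and 0.31 ± 0.08 (adjusted p = 0.000751), and the siRNA.1 call was lost without control replicate 1 (0.174), control replicate 2 (0.0768), siRNA.1 replicate 2 (0.109) or siRNA.1 replicate 3 (0.106). RAD52, which anneals single strands, rose with siRNA.1 by 0.38 ± 0.15 (adjusted p = 0.0378), with 1.54 to 1.94 FPKM in control and 2.18 to 2.49 with siRNA.1. That call rested on 108 to 154 counts in a control library and 172 to 196 with siRNA.1, and was lost without control replicate 2 (adjusted p = 0.22), siRNA.1 replicate 2 (0.0934) or siRNA.1 replicate 3 (0.122). RAD54B had values of -0.20 ± 0.13 and 0.11 ± 0.12 and did not pass.

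Of the 7 genes of end recognition and resection, 3 fell and none rose with siRNA.1, and 1 went in each direction with siRNA.2. Of all tested genes 15.2% fell and 15% rose with siRNA.1, and 15.1% and 15.8% with siRNA.2. Among those averaging 1 FPKM or more, these shares were 22.8% and 22.1%, and 22.5% and 23.4%. MRE11, the nuclease of the MRN complex, had 10.85, 10.75 and 11.17 FPKM with control siRNA, 10.3, 9.61 and 10.2 with siRNA.1 and 8.84, 9.94 and 9.14 with siRNA.2. Every siRNA library was below every control library. The changes were -0.15 ± 0.06 (adjusted p = 0.0422) and -0.24 ± 0.06 (adjusted p = 0.000354). The siRNA.1 call was lost in 6 of the fits that left out 1 library, without control replicate 1 (adjusted p = 0.0664), 2 (0.0562) or 3 (0.15), siRNA.1 replicate 2 (0.192) or 3 (0.0693), or siRNA.2 replicate 3 (0.0506), while the siRNA.2 call held throughout. The other MRN genes, RAD50 and NBN, and RBBP8, which encodes the MRN cofactor CtIP, were not called, although all siRNA libraries of RBBP8 (17 to 17.9 FPKM) lay above its control libraries (14.8 to 16.7), with values of 0.13 ± 0.06 and 0.10 ± 0.06. Its siRNA.1 value passed without control replicate 2 (adjusted p = 0.0459).

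DNA2 (chr10:68414064-68472121), a nuclease and helicase of long-range resection, had the largest fall. It had 7.55, 9.42 and 8.61 FPKM with control siRNA, 5.93, 5.43 and 6.04 with siRNA.1, and 7.87, 7.87 and 7.19 with siRNA.2. The siRNA.1 libraries were below all others, and the siRNA.2 libraries overlapped with control. The log2 fold change was -0.58 ± 0.08 (adjusted p = 5.04e-11) with siRNA.1, or 0.668-fold, and -0.17 ± 0.08 (adjusted p = 0.0951) with siRNA.2, which passed at -0.25 (adjusted p = 0.0194) without control replicate 1. Between the siRNAs it was 0.41 ± 0.08 (adjusted p = 2.14e-05). BLM, the helicase that works with DNA2, followed the same order with smaller steps, 7.17 to 8.53 FPKM in control, 6.58 to 7.22 for siRNA.1 and 7.39 to 8.36 for siRNA.2. Its siRNA.1 change was -0.24 ± 0.07 (adjusted p = 0.00226), lost without control replicate 3 (0.0684), and its siRNA.2 value was -0.01 ± 0.07 (adjusted p = 0.914). EXO1, the exonuclease of the parallel resection route, rose with siRNA.2 by 0.20 ± 0.06 (adjusted p = 0.00321) and had an uncalled value of 0.13 ± 0.06 with siRNA.1, with 19.5 to 20.3 FPKM in control and 21.7 to 23.95 in the siRNA libraries.

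The nucleases that cut joint molecules went in different directions. MUS81, the catalytic subunit of the MUS81-EME1 enzyme, had 9.98, 11.45 and 10.84 FPKM with control siRNA, 12.3, 13.2 and 12.2 with siRNA.1 and 12.4, 12.7 and 14.2 with siRNA.2. All siRNA libraries were above control, with changes of 0.20 ± 0.06 (adjusted p = 0.0107) and 0.27 ± 0.06 (adjusted p = 0.000123). The siRNA.1 call was lost without control replicate 1 (adjusted p = 0.119) or siRNA.1 replicate 2 (0.0615). In FPKM its partner EME1 also lay above control in all siRNA libraries, narrowly with siRNA.2 (5.77 against 5.65 FPKM at the closest). Its values of 0.19 ± 0.11 and 0.15 ± 0.11 did not pass.

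GEN1, the other Holliday junction resolvase, had 5.96, 5.55 and 6.07 FPKM with control siRNA, 4.95, 5.13 and 5.13 with siRNA.1 and 5.75, 4.47 and 4.95 with siRNA.2. Only siRNA.2 replicate 1 reached the control range. The changes were -0.24 ± 0.07 (adjusted p = 0.00164) and -0.22 ± 0.06 (adjusted p = 0.00242), and the siRNA.2 change was -0.15 (adjusted p = 0.114) without siRNA.2 replicate 2. SLX4, the scaffold that holds MUS81-EME1 and other nucleases, had values of -0.31 ± 0.12 (adjusted p = 0.0457) and -0.25 ± 0.12 (adjusted p = 0.107). Its libraries were at 1.72 to 1.96 FPKM in control, 1.41 to 1.57 for siRNA.1 and 1.32 to 1.69 for siRNA.2, and the siRNA.1 call was lost without control replicate 1 (adjusted p = 0.206), 2 (0.0515) or 3 (0.0542) or siRNA.1 replicate 1 (0.141) or 2 (0.098).

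The direct comparison of siRNA.2 with siRNA.1 called 6 of the 36 genes, 5 higher and 1 lower, where 12.2% of all tested genes (6.1% higher and 6.06% lower) and 19.3% of those averaging 1 FPKM or more (9.79% and 9.54%) were called. A difference of 0.5 or more was called for FANCB alone, as for 2.29% of all tested genes. Those higher with siRNA.2 were FANCB, UBE2T, FANCD2, DNA2 and BLM, and FANCE was lower. The FANCE difference, -0.40 ± 0.12 (adjusted p = 0.0112), was lost without siRNA.1 replicate 1 (-0.25, adjusted p = 0.303), and the BLM difference, 0.22 ± 0.07 (adjusted p = 0.00995), without siRNA.1 replicate 1 (0.0664) or siRNA.2 replicate 3 (0.162).

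Related genes from outside the set are given for comparison. Beside the lists that follow, 15% of all tested genes rose and 15.2% fell with siRNA.1, and 15.8% and 15.1% with siRNA.2. Among those averaging 1 FPKM or more, 22.1% rose and 22.8% fell with siRNA.1, and 23.4% and 22.5% with siRNA.2. With both siRNAs 11.1% of all tested genes rose and 10.2% fell, or 16.6% and 15.7% at 1 FPKM or more. Of 43 other Fanconi and recombination genes, such as further core complex subunits and replication protein A, 2 rose and 7 fell with siRNA.1, 9 rose and 9 fell with siRNA.2, and 2 rose and 6 fell with both. Their medians were -0.02 and 0.02. PARPBP, which restrains recombination, fell from 5.07 to 2.84 and 2.93 FPKM (log2 -0.86 ± 0.11 and -0.81 ± 0.11, adjusted p = 6.17e-13 and 5.61e-12), MCM9, a helicase of recombination repair, from 1.76 to 0.94 and 1.08 (-0.93 ± 0.12 and -0.71 ± 0.11, adjusted p = 8.88e-14 and 5.97e-09), and ZSWIM7, a partner of paralogue SWSAP1, from 4.76 to 3.71 and 3.19 (-0.39 ± 0.14 and -0.59 ± 0.14, adjusted p = 0.0251 and 0.00018). Each of these falls was larger than that of any of the 3 genes of the set that fell with both siRNAs. PARPBP, MCM9 and ZSWIM7 were named for having the largest changes called with both siRNAs among the 43, so that choice largely sets the comparison. DNA2, of the set, had -0.58 with siRNA.1, beyond the -0.39 of ZSWIM7.

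End joining competes with recombination for broken ends. Of 17 genes of end joining and shieldin, 6 rose and 6 fell with siRNA.1, 5 rose and 2 fell with siRNA.2, and 4 rose and 2 fell with both, with medians of -0.08 and -0.02. POLQ, the polymerase of microhomology-mediated joining, rose from 7.54 to 11.4 FPKM with each siRNA (0.57 ± 0.06 and 0.58 ± 0.06, adjusted p = 6.15e-21 and 5.35e-22). SHLD2, a shieldin subunit that limits resection, rose from 9.69 to 14.3 and 14.1 FPKM (0.53 ± 0.07 with each, adjusted p = 1.68e-12 and 5.93e-13), and POLL, a gap-filling polymerase, from 2.99 to 3.87 and 4.03 (0.35 ± 0.11 and 0.42 ± 0.11, adjusted p = 0.00648 and 0.000525).

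Since recombination genes follow the cell cycle, phase genes are given beside them. Of all tested genes, 15% rose and 15.2% fell with siRNA.1, and 15.8% and 15.1% with siRNA.2. Among those averaging 1 FPKM or more, these shares were 22.1% and 22.8%, and 23.4% and 22.5%. Of 40 S phase genes, 11 rose and 10 fell with siRNA.1 and 17 rose and 1 fell with siRNA.2, with medians of 0.0092 and 0.12, where the set had 0.06 and 0.12. TIPIN, a fork protection factor, rose by 0.36 ± 0.08 and 0.57 ± 0.08 (adjusted p = 6.94e-05 and 1.19e-11), RRM2, a ribonucleotide reductase subunit, by 0.24 ± 0.04 and 0.48 ± 0.04 (adjusted p = 5.42e-07 and 4e-26), and MCM3, of the replicative helicase, by 0.30 ± 0.05 and 0.32 ± 0.05 (adjusted p = 6.51e-08 and 4.33e-09). Of 31 G2/M genes, 2 rose and 15 fell with siRNA.1 and 2 rose and 8 fell with siRNA.2, with medians of -0.16 and -0.03. The mitotic kinase NEK2 changed by -0.34 ± 0.06 and -0.28 ± 0.06 (adjusted p = 1.08e-06 and 8.02e-05), the kinetochore motor CENPE by -0.40 ± 0.06 and -0.22 ± 0.05 (adjusted p = 1.31e-11 and 0.000315) and HMMR, a spindle protein, by -0.39 ± 0.06 and -0.21 ± 0.06 (adjusted p = 3.47e-10 and 0.0013).

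Of 20 E2F and DREAM regulators, 5 rose and 5 fell with siRNA.1 and 6 rose and 4 fell with siRNA.2, with medians of -0.05 and 0.03. LIN9, a subunit of the MuvB core, rose by 0.50 ± 0.09 and 0.46 ± 0.09 (adjusted p = 1.91e-07 and 2.02e-06), the activator E2F1 by 0.42 ± 0.08 and 0.37 ± 0.07 (adjusted p = 1.99e-07 and 5.43e-06), and the pocket protein RBL2 changed by -0.46 ± 0.07 and -0.41 ± 0.07 (adjusted p = 1.16e-08 and 1.43e-07). By flow cytometry of cells, a measure other than RNA, the paper reports S phase accumulation in TE13 after PARylator knockdown. The part of the phase genes in the changes of the set was not tested.

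**Figure D3:**
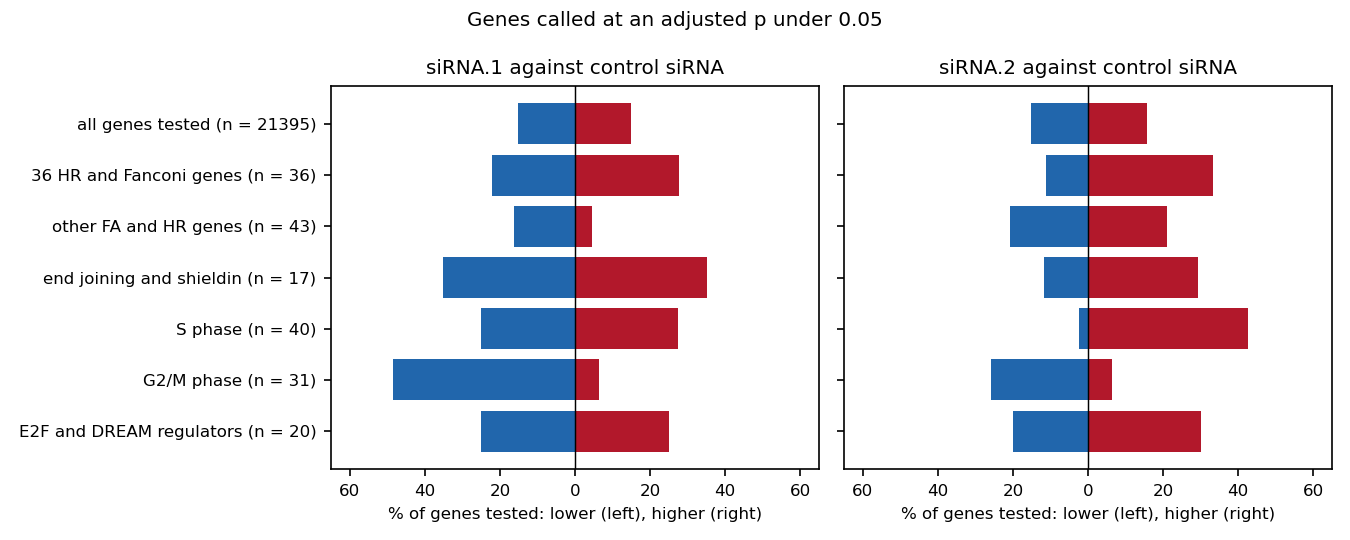
Share of the tested genes of each list that passed an adjusted p under 0.05, lower to the left and higher to the right, in % of the genes tested, for each PARylator siRNA. With siRNA.2 the set has 12 higher and 4 lower of 36, S phase genes have 17 higher and 1 lower of 40, and G2/M genes have 2 higher and 8 lower of 31. Of all tested genes, 15.8% were higher and 15.1% lower with siRNA.2.

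Exons shared with other genes limit what the counts of some of these genes hold, since a fragment in a shared exon can be dropped or given to the neighbour, and whether the counting used strand is not stated. In GENCODE release 44 (GRCh38), 11 of the 36 share no exonic base with another gene, 25 share some and 7 share over 10%. The deposited exonic length was the same there for 20 of the 36, and different for 16. RAD50 (chr5:132556019-132646349) shares 76.9% of its exonic bases with ENSG00000283782, a protein-coding gene on the same strand that had 8 counts in all 9 libraries together. RAD50 had 0.51, 0.56 and 0.42 FPKM with control siRNA, 0.66, 0.66 and 0.65 with siRNA.1 and 0.62, 0.52 and 0.61 with siRNA.2, far under its complex partners MRE11 (10.9 FPKM with control siRNA) and NBN (8.55). Its values of 0.37 ± 0.18 and 0.23 ± 0.18 did not pass, and the part of the shared exons in its low level was not tested. RAD54B shares 66.0% with FSBP on the same strand, and FSBP itself changed with siRNA.2 by -0.99 (adjusted p = 0.000237).

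XRCC3 shares 76.7% of its exonic bases with KLC1, a kinesin light chain gene on the opposite strand. KLC1 changed by 0.27 (adjusted p = 9.62e-05) and 0.24 (adjusted p = 0.000531), beside 0.22 and 0.30 for XRCC3, so that without strand the fragments of the pair cannot be told apart and the XRCC3 calls are uncertain. RAD54L shares 19.9% with LRRC41 on the opposite strand, which rose with siRNA.1 (0.26, adjusted p = 0.000138) and had a value of 0.05 (adjusted p = 0.641) with siRNA.2. MUS81 shares 13.9% with CFL1, whose 269 FPKM with control siRNA exceed the 10.8 of MUS81 and which fell with siRNA.1 (-0.17, adjusted p = 1.24e-06) and had a value of -0.0027 (adjusted p = 0.974) with siRNA.2. The part of these neighbours in the RAD54L and MUS81 calls was not tested. UBE2T, BRCA2, BARD1, RAD51AP1 and MRE11 share no exonic base with another gene. FANCF shares 9.57% with GAS2 and RAD51B 7.49% with a lncRNA, ENSG00000287385, and these neighbours had 53 and 28 counts in all 9 libraries.

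The genes of the set are long, with a median exonic length of 6114.5 bases against 4704 for the 12532 genes averaging 1 FPKM or more. Longer genes had lower log2 fold changes, with a Spearman correlation across genes of -0.27 and -0.23 for the 2 siRNAs in the set (n = 36) and of -0.10 and -0.12 over the 12532 genes. Genes share libraries and are not independent replicates, so these are descriptions. Taking out the median of genes of like length moved values by at most 0.0536 for siRNA.1 and 0.0685 for siRNA.2, and the medians of the set were then 0.07 and 0.11.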

How the data were processed

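Poly(A)+ RNA of 9 TE13 libraries, 3 for each of control siRNA and the PARylator siRNAs named siRNA.1 and siRNA.2, was sequenced, aligned with STAR and counted per gene with featureCounts on GRCh38 by the authors. Versions and strand setting are not given in the sources used here. The authors deposited raw counts and FPKM in 1 table, and FPKM recomputed from the counts, exonic lengths and library totals differed by at most 0.000492 of the value. Columns were matched to libraries by their titles.

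Counts were tested with edgeR 4.0.16 in R 4.3.3 (TMM scaling, quasi-likelihood test, 1 fit of all 9 libraries, no covariates) over the 21395 genes averaging 0.1 FPKM or more, with p-values adjusted over all of them by the Benjamini-Hochberg method and a threshold of 0.05. Genes that passed are said to rise or fall. Overlap of libraries was judged in FPKM, which uses library totals without TMM scaling. Standard errors are the size of the log2 fold change over the square root of F. DESeq2 1.42.0 and limma 3.58.1 on log2(FPKM + 0.1) served as alternatives. On simulated data for siRNA.1 against control, edgeR recovered 84 of 100 genes changed by log2 0.5 and 93 of 100 changed by log2 1 among 21395, with 8 unchanged genes called. The simulation gave all genes the same spread and changed only 200 genes, all above a floor on counts. In the data 30.3% of all tested genes were called with siRNA.1, so these figures do not carry over to the calls made here.

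Total counts of 15337917 to 22559998 gave a median standard error of 0.08 on the log2 scale over the set. Deviations from the group means correlated between -0.0367 and 0.0225 for libraries of the same replicate number. These values cover all tested genes, low ones included, and pairs of different numbers were not taken. They therefore do not settle whether replicate numbers pair the libraries.

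The members, role groups and comparison lists were chosen with earlier results of these data known, and the lists were written from recall. All 36 genes are named. Values per library are given for the 8 with the largest mean change among those called with both siRNAs, for genes called between the siRNAs by 0.5 or more, and for further genes chosen after their values were seen. Of each other list, the 3 genes with the largest mean change called with both siRNAs are named. Exon overlap used GENCODE release 44 and promoters used RefSeq windows, searched in Python 3.11.15 with pandas 2.3.3.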

Additional observations from a re-analysis of the deposited data

Results flagged for a closer look

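The effects of siRNA.1 and siRNA.2 against the same control libraries differed, by edgeR's test of siRNA.2 against siRNA.1, for 6 of the 36 genes (16.7%), where 12.2% of all tested genes and 19.3% of those averaging 1 FPKM or more were called. On the log2 scale, siRNA.2 was higher by 0.51 for FANCB (adjusted p = 0.00727), 0.41 for DNA2 (2.14e-05), 0.25 for FANCD2 (0.0012), 0.24 for UBE2T (0.000627) and 0.22 for BLM (0.00995), and the difference for FANCE was -0.40 (0.0112). At a difference of 0.5 or more, only FANCB passed, against 2.29% of all tested genes.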

How the results depend on the processing

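Of the 40 calls of the set, 15 passed in all 23 other settings tried on them. With DESeq2, 12, 11 and 6 genes were called with siRNA.1, siRNA.2 and between them, and 7 with both siRNAs, against 18, 16, 6 and 12 in edgeR. With limma at pseudocounts of 0.1, 1 and 0.01 alike, 9 were called with siRNA.2, 2 between the siRNAs and 6 with both. Asking also for a log2 fold change of 0.5 or more in size left 2, 3, 1 and 1. Further scalings were added after seeing the data. With FPKM rescaled to the same sum, 2 were called between the siRNAs, and the all-gene median rose to 0.10 and 0.08 and the share of calls that were higher to 73.3% and 66.2% of all genes, against 49.7% and 51.2% in edgeR; of the set, 11 rose and 1 fell with siRNA.1 and 10 rose and 2 fell with siRNA.2. With quantile normalization, the calls numbered 11 for siRNA.1, 8 for siRNA.2 and 4 for both. The cause of these differences was not tested.

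Leaving out each library in turn gave 12 to 18 calls with siRNA.1, 9 to 16 with siRNA.2, 3 to 7 between the siRNAs and 6 to 11 with both, and 21 to 25 and 20 to 24 genes without overlap. Over these fits BRCA2 with siRNA.1 ranged from -0.043, without siRNA.1 replicate 2, to 0.27, and no other value of a called gene changed sign. With the replicate number as a block, the calls numbered 15 for siRNA.1, 16 for siRNA.2 and 9 for both, since BRCA2 (adjusted p = 0.0514), MRE11 (0.0622) and PALB2 (0.0587) no longer passed with siRNA.1, and no call was gained. Summing rows of a shared symbol was not run, since each gene of the set had 1 row. Counts of 79 to 146 in a library limit RAD50.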
